A study of Mus musculus with 2 samples.

Results

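Macrophage and neutrophil genes were followed in mouse liver without MMP-14, a membrane-anchored matrix protease. The set holds 38 genes taken from a list fixed by name, 24 of macrophages and 14 of neutrophils, among 16390 named genes on the arrays. A probe was matched for 33 of them, 22 macrophage and 11 neutrophil genes, and each of the 33 had a single probe. No probe was matched here for Lyz2, Mpeg1, Elane, Cebpd or the entry written Mmp8x. The array names Adgre1 by its older symbol Emr1.

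Expression was read on 2 arrays of 2 colours, 1 array per comparison, with wild-type RNA in Cy5 and MMP-14 knockout RNA in Cy3 on both. The first array compared fetal liver cells sorted as Dlk-positive and negative for CD45, CD71 and Ter119, labelled E14 and given as E14.5 in the design text (days of embryonic age), with RNA of 100000 cells from 3 pooled livers per genotype. The second compared whole livers, labelled P1 but given as E18.5, before birth, in the design text, mixed from 2 livers per genotype. The conflict of ages was not settled, and this array is called the P1 array. Strain, sex and the knockout allele were not given in the sources used here. With pooled RNA, no dye swap and no replicate array, no value has an error between animals, nothing was tested, and a dye effect on single genes cannot be told apart from genotype. Ratios are given as log2, with a positive value where the knockout was higher.

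The fetal liver is a site of blood formation, in which macrophages sit among maturing red cells and take up the nuclei that these expel. Kupffer cells, the macrophages that line the liver sinusoids, clear particles, complement-coated cells and old red cells from the blood and return their iron. Neutrophil precursors make their granules in order: the serine proteases and myeloperoxidase of the azurophil granules come first, lactoferrin, cathelicidin and other proteins of the specific granules later. S100a8 and S100a9 encode the paired cytosolic proteins of calprotectin. CD45, encoded by Ptprc, is carried by macrophages and neutrophils alike, so the sort for CD45-negative cells is meant to leave them out of the first array.

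Promoters of 6 members are shown, of genes with the widest gaps between the arrays or among the highest or lowest ratios: S100a9, S100a8, Camp and Mpo of the neutrophil genes, and Marco and Cd5l of the macrophage genes. Each run is the 250 bases before the RefSeq start (GRCm38.p6), 5′ to 3′ on the strand of the gene. Capitals mark the PU-box core GAGGAA, the core bound by the myeloid factor PU.1, and the C/EBP motif TTGCNNAA, both searched on both strands, so that TTCCTC is the core on the other strand. The windows lie at chr3:90695722-90695971 (minus strand), chr3:90668821-90669070 (plus), chr9:109849457-109849706 (minus), chr11:87793534-87793783 (plus), chr1:120505025-120505274 (minus) and chr3:87357631-87357880 (plus).
S100a9: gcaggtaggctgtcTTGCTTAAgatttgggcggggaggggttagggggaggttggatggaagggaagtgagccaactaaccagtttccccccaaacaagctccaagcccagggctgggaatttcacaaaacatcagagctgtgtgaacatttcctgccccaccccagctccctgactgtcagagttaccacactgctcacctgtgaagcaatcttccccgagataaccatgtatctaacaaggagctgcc
S100a8: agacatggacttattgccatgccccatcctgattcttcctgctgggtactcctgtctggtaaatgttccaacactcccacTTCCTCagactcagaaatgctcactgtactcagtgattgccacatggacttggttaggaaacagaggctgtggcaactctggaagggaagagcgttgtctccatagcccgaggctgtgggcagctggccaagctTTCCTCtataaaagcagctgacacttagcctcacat
Camp: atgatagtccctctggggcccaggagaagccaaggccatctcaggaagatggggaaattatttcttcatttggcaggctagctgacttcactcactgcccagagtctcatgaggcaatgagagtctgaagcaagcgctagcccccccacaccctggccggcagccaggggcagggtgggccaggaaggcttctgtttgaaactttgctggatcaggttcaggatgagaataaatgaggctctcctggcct
Mpo: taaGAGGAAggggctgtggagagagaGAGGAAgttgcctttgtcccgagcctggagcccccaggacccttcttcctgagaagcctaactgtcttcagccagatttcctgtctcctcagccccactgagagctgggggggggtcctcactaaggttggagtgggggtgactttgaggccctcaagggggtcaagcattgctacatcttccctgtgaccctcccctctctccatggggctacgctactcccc
Marco: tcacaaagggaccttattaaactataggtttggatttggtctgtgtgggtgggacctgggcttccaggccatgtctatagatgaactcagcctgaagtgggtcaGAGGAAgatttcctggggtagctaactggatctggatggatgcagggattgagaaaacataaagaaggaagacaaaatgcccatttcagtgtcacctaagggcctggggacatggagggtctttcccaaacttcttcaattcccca
Cd5l: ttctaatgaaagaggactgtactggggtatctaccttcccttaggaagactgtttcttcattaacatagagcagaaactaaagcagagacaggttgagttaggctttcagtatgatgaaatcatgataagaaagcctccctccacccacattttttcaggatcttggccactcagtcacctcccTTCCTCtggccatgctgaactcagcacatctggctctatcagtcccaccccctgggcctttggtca
In S100a8 the core lay 170 and 36 bases before the start, in Mpo 247 and 224, in Marco 146 and in Cd5l 66. S100a9 had the C/EBP motif at 236 bases and no core, and Camp had neither in this window. Windows were found for 12 neutrophil and 18 macrophage members. The core was present in 8 of the 12 neutrophil genes and in 11 of the 18 macrophage genes, against 23.3% of all 32851 windows. The C/EBP motif was present in 5 and 2 genes, against 9.56% of all windows. These matches describe letters only, and no binding was measured on the arrays.

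A signal was called detectable above the mean of the blank spots plus 2 SD, after 5% of the blank spots was trimmed at each end. The thresholds of the E14 array were 44.3 for wild type and 85.1 for knockout, and those of the P1 array were 50.5 and 87.0. Of all named genes, 77.9% were detectable for wild type, 84.9% for knockout and 77.5% for both on the E14 array, and 81.2%, 80.9% and 77.6% on the P1 array. Paired readings below give the wild type first. Dlk1, the gene of the sort antigen, read 4971 and 11869 on the E14 array and 128 and 197 on the P1 array. Ptprc read 43.8 and 88.9 in the sorted cells, just under the wild-type and just over the knockout threshold, and 267 and 374 in whole liver. The CD71 gene Tfrc stayed well above both thresholds in the sorted cells (196 and 518). Mmp14 itself read 131 and 132 on the E14 array and 161 and 104 on the P1 array, with normalised ratios of -1.13 and -1.30.

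In the sorted E14 cells 17 of 22 macrophage and 10 of 11 neutrophil genes had a wild-type signal under 1.5 times the threshold. Of the 16387 named genes with a ratio on that array, 8319 were in the same range. In P1 liver all 33 members were detectable in both channels, against 77.6% of all named genes. Among the 22 macrophage genes on the E14 array, 12 were detectable in both channels, 2 in the wild-type channel only, 4 in the knockout channel only and 4 in neither. For the 11 neutrophil genes the counts were 9, 0, 1 and 1. The members seen in 1 channel only were close to the thresholds. Between the arrays in the same dye, after quantile normalisation, the macrophage genes had a median log2 difference of 2.93 in the wild-type channel, with 19 of 22 more than 2-fold higher in P1 liver, where 4.83% of all genes were. In the knockout channel the median was 3.27, with 20 of 22, against 5.89% of all genes. The neutrophil medians were 4.57 and 4.52, with 11 of 11 more than 2-fold higher in both channels. Tissue, stage and array differ together here and cannot be told apart.

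**Figure D1:**
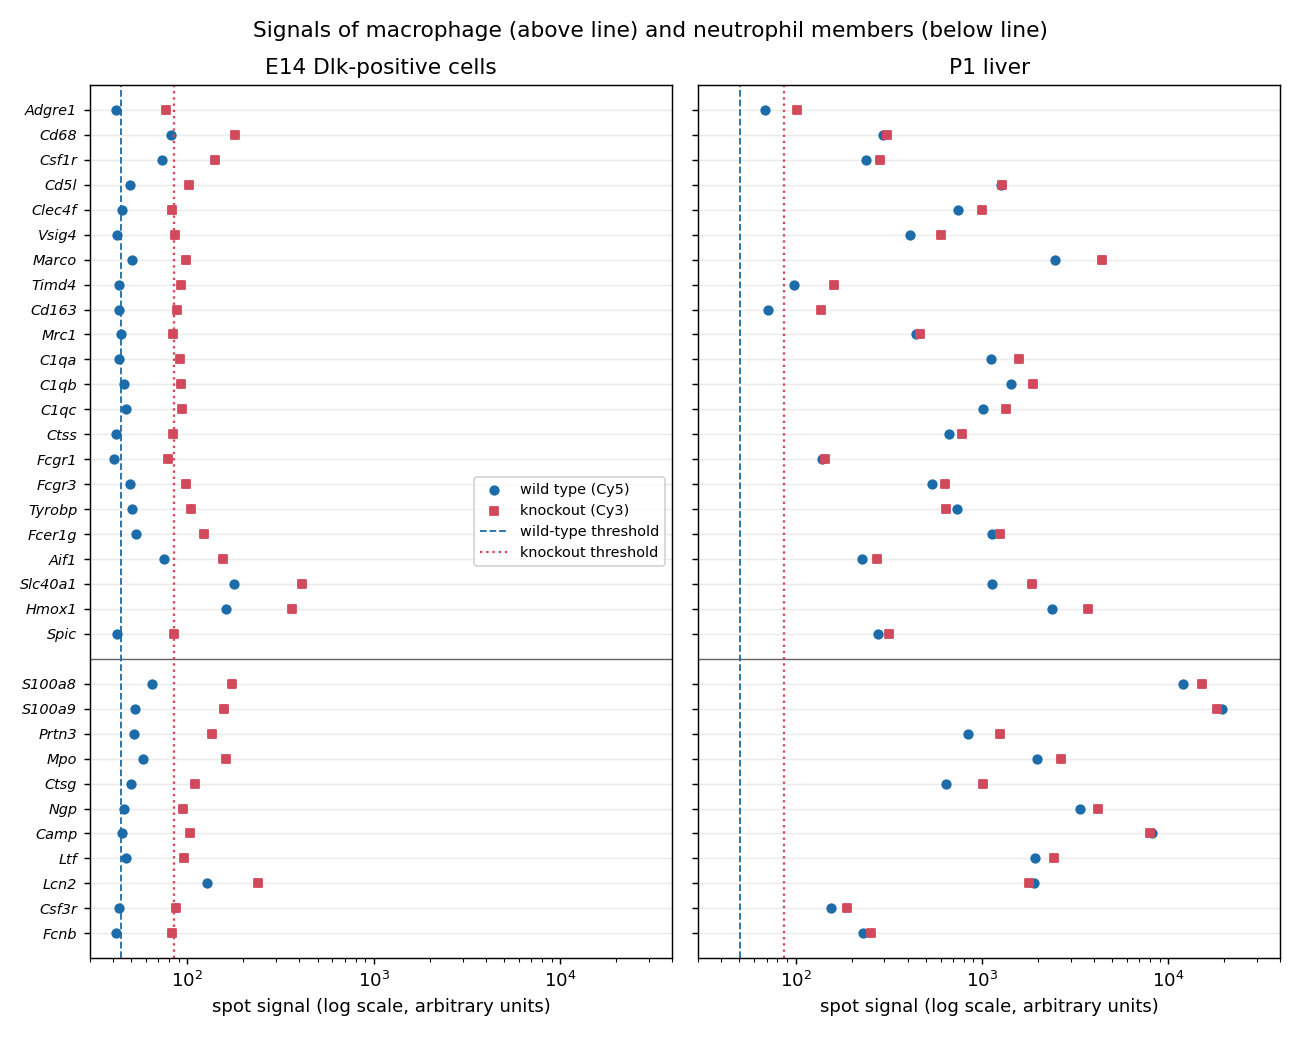
Spot signals of the 33 members (log axis, arbitrary units) on the E14 Dlk-positive array (left) and the P1 liver array (right), wild type as circles and knockout as squares, with the detection thresholds of both channels as lines. Most members sit near the thresholds on the left, and all lie above them on the right; 1 array per panel, so there are no error bars.

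The widest gaps between the arrays in the wild-type channel were those of S100a9, Camp and S100a8. S100a9 read 52.7 in wild-type and 157 in knockout sorted cells, and 19496 and 18332 in wild-type and knockout P1 liver, a log2 difference of 7.98 and 7.30. Camp, the cathelicidin gene, read 44.9 and 103 in sorted cells and 8205 and 7955 in liver. S100a8 read 64.8 and 174 in sorted cells and 12056 and 15194 in liver. In all 3 genes both P1 channels stood far above both E14 channels. The smallest neutrophil differences were those of Csf3r, the receptor of granulocyte colony-stimulating factor, at 1.41 and 1.56.

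Among the macrophage genes, the scavenger receptor gene Marco had the largest difference, 5.10 for wild type and 6.07 for knockout, followed in the wild-type channel by the complement gene C1qb (4.49 and 4.98). Adgre1, which encodes F4/80, was dim in every channel, with 41.7 and 77.2 in sorted cells and 68.8 and 102 in liver, and differed by 0.40 and 0.58. The iron exporter gene Slc40a1 and the heme oxygenase gene Hmox1 were the brightest macrophage members in the sorted cells, at 178 and 415 and at 162 and 365. Both genes are also expressed outside macrophages. Next came Cd68 (81.7 and 181), Aif1 (75.4 and 155) and the growth factor receptor gene Csf1r (73.3 and 142).

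**Figure D2:**
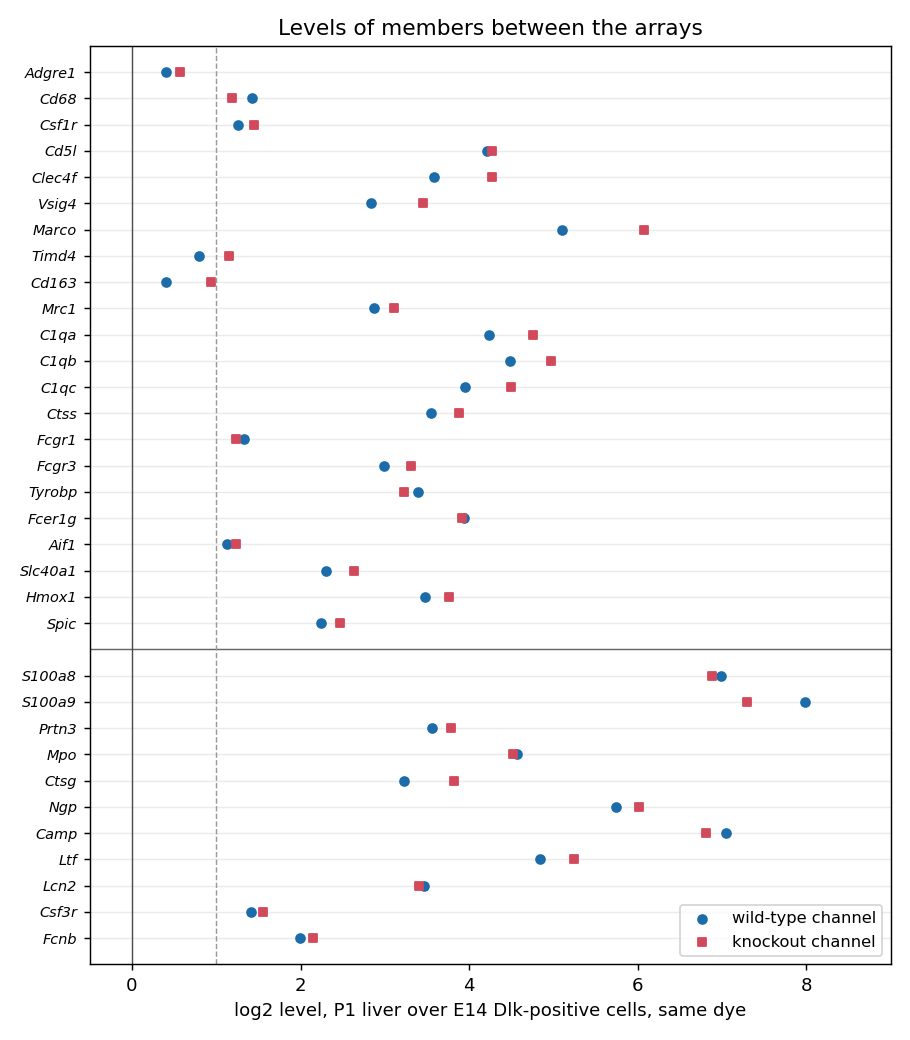
Log2 level of each member in P1 liver over E14 Dlk-positive cells, from the wild-type channels (circles) and the knockout channels (squares) of the arrays; the dashed line marks 2-fold. Every member lies to the right of 0, from Adgre1 at 0.40 to S100a9 at 7.98 in the wild-type channel.

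The knockout comparison in sorted E14 cells gave higher knockout readings for the granule and calprotectin genes, at low signal. As these are bulk samples, a change in the number of cells of a type and a change in RNA per cell cannot be told apart. Mpo, the myeloperoxidase gene, read 58.2 for wild type and 160 for knockout. Prtn3, which encodes proteinase 3, read 51.6 and 136, and Ctsg, the cathepsin G gene, 50.1 and 110. Measured above the blank mean, the 3 azurophil genes summed to 33.0 for wild type and 164 for knockout, a factor of 4.98. For S100a8 and S100a9 the sums were 32.9 and 169, a factor of 5.13. The same factor was 2.23 over all named genes, the knockout channel being brighter as a whole, and 2.54 over the macrophage members. Over the other cell type lists it ran from 1.10 for hepatocyte and hepatoblast genes to 3.80 for genes shared by leukocytes. It was 3.13 for lung epithelial genes, 2.92 for lymphoid genes and 2.22 for the further granulocyte genes given below. The hepatocyte and hepatoblast genes had median readings of 34118 and 34246, and the part of this brightness in their factor was not tested. The 4 specific granule genes gave 2.20, a sum to which Lcn2 contributed most; without Lcn2, a choice made after the values were seen, the other 3 summed to 11.0 and 52.5, a factor of 4.79.

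Normalised, the neutrophil members had a median ratio of 0.10 on the E14 array, with 10 of 11 above 0, beside 0.01 over all named genes; under median centring it was 0.02, with 7 of 11 above 0. The highest were S100a9 (0.49), Mpo (0.37), Prtn3 (0.34), S100a8 (0.32) and Camp (0.18). Lcn2, a siderophore-binding protein gene that hepatocytes can also express, was the only member below 0, at -0.26 with readings of 128 and 241. No member reached 1.5-fold in these values, in which 0.238% of all genes were at least 1.5-fold higher and 0.171% lower. The offset used in the background correction shrinks dim genes. In the authors' deposited table, which has no such offset, 6 of the 9 neutrophil members with a value were at least 1.5-fold higher, against 5.38% of all genes, and 0 were lower, against 1.22%. Those values were 1.77 for Camp, 1.52 for S100a9, 1.22 for Prtn3, 0.98 for Mpo and 0.70 for Ngp and S100a8. Camp stood only 2.58 above the blank mean in the wild type, where the trimmed blank spots had an SD of 0.997, so its ratio rests on a reading close to the blanks.

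Dim genes of this array more often had high values in the authors' deposited table. Of the named genes with a wild-type signal under 1.5 times the threshold, 12.7% were at least 1.5-fold higher there and 2.26% lower, with a median of 0.10; in the main values 0.012% and 0% were. In that range lay 10 neutrophil members, 8 with a deposited value, and their deposited median was 0.84. Under median centring all named genes in that range had a median of -0.22, with 12.6% above 0. The 10 neutrophil members there had a median of 0.01. The brightness range was chosen after the values were seen. With median centring in place of loess, Mpo (0.47), S100a8 (0.47), S100a9 (0.56) and Prtn3 (0.34) stayed above 0, whereas Ngp, Ltf, Csf3r and Fcnb were below it, and 0 of 11 members reached 1.5-fold, against 19.2% of all genes higher and 0.0305% lower.

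Genes of other blood cells were read beside these. Of 14 genes shared by most leukocytes, 8 were detectable for wild type and 10 for knockout on the E14 array. Their sums above the blank mean were 105 and 401, a factor of 3.80. In the authors' deposited table all 8 with a value were above 0, with a median of 0.41 and 3 at least 1.5-fold higher, against 5.38% of all genes and 12.7% of the dim ones. Their median was 0.05 in the main values, with 0 of 14 at 1.5-fold. Under median centring it was -0.15, with 2 of 14 above 0, beside -0.22 for the dim genes. Megakaryocyte genes had a factor of 3.60 and erythroid genes 2.65. The defining leukocyte gene Ptprc was near the threshold in both channels, as given above. The part of other blood cells left after sorting in the neutrophil ratios was not tested.

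Macrophage members had a median ratio of 0.01 on the E14 array, the same as all named genes, with 12 above and 10 below 0. Under median centring it was -0.20, with 5 of 22 above 0, beside -0.22 and 12.6% above 0 for the dim genes. In the main values the macrophage members ranged from -0.14 (Csf1r) to 0.17 (Fcer1g, the common gamma chain of Fc receptors), and 0 of 22 reached 1.5-fold. Fcer1g was the only one of the 12 macrophage members with a value that was at least 1.5-fold higher in the authors' deposited table, at 0.66 with readings of 52.9 and 124, near the share of all genes (5.38%) and of dim genes (12.7%). Csf1r stood at -0.38 there. Among the surface genes of Kupffer cells, Clec4f, Vsig4, Timd4, Cd163, Mrc1 and Adgre1 were undetectable in at least 1 channel of the sorted cells, which leaves Csf1r and Marco (50.8 and 98.2) with both channels above the threshold.

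**Figure D3:**
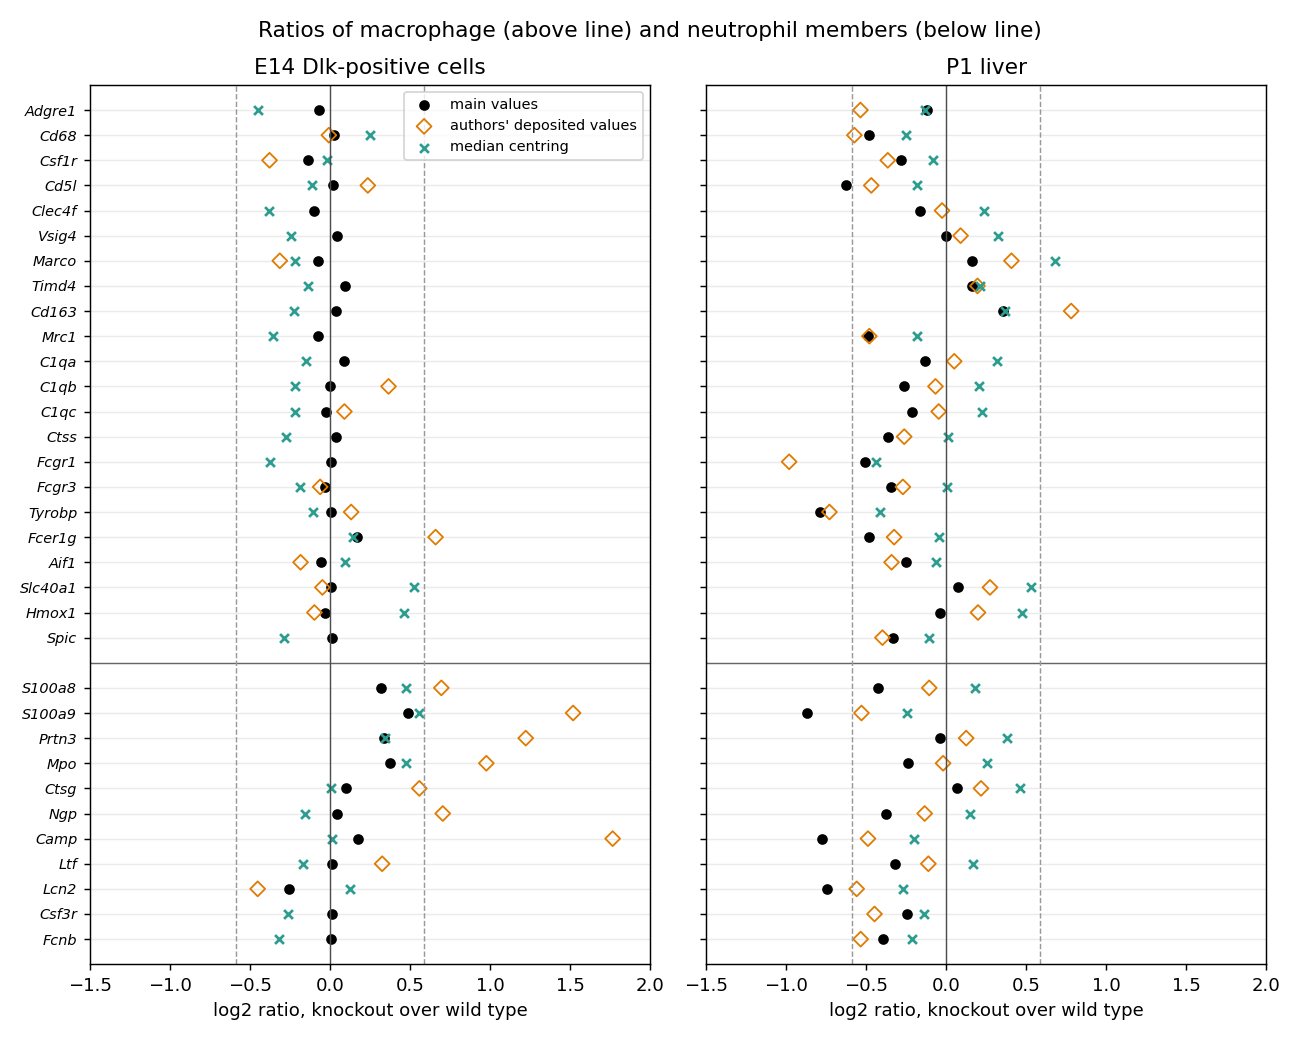
Log2 ratio of knockout over wild type for each member on the E14 Dlk-positive array (left) and the P1 liver array (right), as main values (black circles), authors' deposited values (open diamonds, given only where both channels were detectable) and median-centred values (crosses); dashed lines mark 1.5-fold. On the left the deposited values of Camp, S100a9, Prtn3 and Mpo stand furthest to the right, and on the right the median-centred values lie above the main values for nearly all members.

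In P1 liver the macrophage members had a median ratio of -0.25, with 18 of 22 below 0, beside a median of 0.00 over all named genes. At least 1.5-fold lower were 2 of 22, Tyrobp and Cd5l, where 3.36% of all genes were lower. Both were among the 12 macrophage members with a wild-type signal over 10 times the threshold, a range that held 1797 of 16390 named genes. In that range, chosen after the values were seen, 11.4% of all genes were lower. At least 1.5-fold higher were 0 of 22, against 2.2% of all genes. The sign of the list depends on the scaling: with median centring, which moved the median of all genes to 0.01, its median was 0.01 with 12 of 22 above 0, 1 at least 1.5-fold higher (Marco, against 7.9% of all genes) and 0 lower (against 2.12%). In the authors' deposited table it was -0.27, with Fcgr1 and Tyrobp at least 1.5-fold lower, against 12.2% of all genes, and Cd163 at least 1.5-fold higher, against 11.9%.

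The lowest ratios were those of Tyrobp, Cd5l and Fcgr1. Mrc1, Cd68 and Ctss, given below, were lower than Fcgr3 and Aif1, so the low end was not made up of Fc receptor genes alone. Tyrobp, the adaptor DAP12 that signals for many myeloid receptors, read 735 for wild type and 644 for knockout and had a ratio of -0.79. Cd5l, which encodes a protein that macrophages secrete to inhibit apoptosis, read 1273 and 1282, with a ratio of -0.62. Tyrobp was the only macrophage member with a lower raw reading in the knockout channel, in which the blank spots read higher (means of 48.0 and 82.5). Measured above the blank mean, Cd5l (1225 and 1199), Mrc1 (396 and 385), Cd68 (248 and 226), Fcgr1 (90.8 and 62.3) and Adgre1 (20.8 and 19.5) were also lower there. The activating receptor genes Fcgr1 (-0.51, readings of 139 and 145) and Fcgr3 (-0.34), their gamma chain gene Fcer1g (-0.48) and Aif1 (-0.25), a calcium-binding protein of activated macrophages, were also below 0. Under median centring Tyrobp, Fcgr1, Fcer1g and Aif1 stayed below 0, and Fcgr3 stood at 0.00.

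Lysosomal and endocytic genes lay in the same range. Cd68, a lysosomal membrane glycoprotein gene, had a ratio of -0.48, the lysosomal protease gene Ctss -0.36, and Mrc1, the mannose receptor gene, -0.49. The readings of Mrc1 were 444 and 467, and those of Cd68 were 296 and 308. Above the blank mean Mrc1 stood at 396 and 385 and Cd68 at 248 and 226. On that measure all named genes summed to 1.45 times more signal in the knockout channel.

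The other surface genes of Kupffer cells stood higher. Cd163, the receptor for haptoglobin-bound hemoglobin, had the highest ratio of the macrophage members, 0.36 with readings of 71.5 and 137, and 0.78 in the authors' deposited table. Marco, with readings of 2466 and 4426, stood at 0.16 and the phosphatidylserine receptor gene Timd4, with 98.5 and 161, at 0.16. Vsig4, a complement receptor gene, was at 0.00 and Clec4f, a lectin of Kupffer cells, at -0.16 (740 and 1003). Csf1r was at -0.28. The median of the 8 surface genes, Mrc1 and Adgre1 included, was -0.06, beside -0.48 for Tyrobp, Fcgr1, Fcgr3, Fcer1g and Aif1, and their difference was not tested. Marco was at -0.38 and Clec4f at 0.78 when normexp used the local background, so their signs depend on that choice.

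The 3 subunit genes of C1q, the complement protein that tags cells for uptake, had similar ratios. C1qa read 1123 and 1590 (-0.13), C1qb 1439 and 1881 (-0.26) and C1qc 1013 and 1347 (-0.21). Under median centring all 3 were above 0, at 0.32, 0.21 and 0.22. Of the iron genes, Slc40a1 (1136 and 1863) was at 0.08, Hmox1 (2388 and 3719) at -0.04 and Spic, the transcription factor gene of iron-recycling macrophages, at -0.33 with readings of 278 and 319. With local background in normexp, Slc40a1 stood at 1.93.

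Neutrophil members in P1 liver had a median ratio of -0.38, with 10 of 11 below 0 and 3 at least 1.5-fold lower, beside the 3.36% of all genes given above. These were S100a9 (-0.87), Camp (-0.77) and Lcn2 (-0.75; readings of 1913 and 1797), and all 3 were read lower in the knockout channel. S100a8, whose product pairs with that of S100a9, had a ratio of -0.43. In the authors' deposited table the list had a median of -0.13, and 0 of 11 members reached 1.5-fold in either direction. With median centring the median was 0.15, with 6 of 11 above 0 and S100a9 at -0.24. Neutrophil genes are bright in liver: 9 of the 11 had a wild-type signal over 10 times the threshold, against 1797 of 16390 named genes. All named genes in that range had medians of -0.03 in the main values, 0.16 in the authors' deposited table and 0.42 under median centring. Of the genes in that range, also chosen after the values were seen, 5.73% were at least 1.5-fold higher and 11.4% lower in the main values, and 16.1% and 8.3% in the authors' deposited table.

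Within the granule genes the azurophil members stood above the specific granule members in the main values. Prtn3 (842 and 1255) had a ratio of -0.04, Mpo (1975 and 2657) -0.23 and Ctsg (639 and 1014) 0.07, the only neutrophil member above 0. The specific granule genes were lower, with Ngp (3364 and 4174) at -0.38, the lactoferrin gene Ltf (1933 and 2446) at -0.32, and Camp and Lcn2 as given. In the authors' deposited table the medians of these groups were 0.13 and -0.31, and in the main values -0.04 and -0.56. Under median centring they were 0.38 and -0.03. Without Lcn2, left out as for the E14 sums, the specific granule median was -0.13 in the deposited table. It was then -0.38 in the main values and 0.15 under median centring. The groups hold 3 and 4 genes on 1 array. Over the 11 neutrophil members the main ratios were lower at brighter signals (Spearman correlation -0.62, and -0.15 under median centring). The part of brightness in the order of the groups was not tested. With local background in normexp the group medians were -0.08 and -0.72, and Prtn3 stood at 0.998. In that setting Mpo (-0.48) lay below Ltf (-0.45) and close to Ngp (-0.49), so the groups overlapped. Csf3r (-0.24) and Fcnb (-0.39), a ficolin gene of myeloid cells, read 156 and 190 and 231 and 254.

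A probe annotated Ela2 was left out of the counts, since this older symbol belongs to both Elane, the neutrophil elastase gene, and a pancreatic elastase gene. It read 49.2 and 101 on the E14 array and 141 and 193 on the P1 array, with ratios of 0.02 and -0.08. Its level in P1 liver exceeded that in sorted cells by 1.08 and 1.33 on the log2 scale in the wild-type and knockout channels. Mmp8, the neutrophil collagenase gene, had a ratio of 0.18 in P1 liver with readings of 401 and 668, and was picked after its value was seen.

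Other genes of these cells came from wider lists. Of 33 further macrophage and monocyte genes, 4 were above 0 on the P1 array, 2 were at least 1.5-fold lower and 0 higher, against 3.36% and 2.2% of all genes, with a median of -0.23 (-0.06 under median centring). The lowest were Id3 (-0.95), a transcriptional inhibitor also present in other cells, and Cd52 (-0.88), a leukocyte surface gene. Mertk, a receptor for uptake of dying cells, and Gpnmb had the highest ratios, 0.25 and 0.22. Ccr2 and Cx3cr1, the chemokine receptor genes of monocytes, stood at -0.55 and -0.33, chosen after their values were seen. Of 24 further granulocyte genes, 4 were at least 1.5-fold lower and 0 higher, with a median of -0.07 (0.01 under median centring). The 4 were Hp, Cyba, Plac8 and Anxa1, all among the bright genes, of which 11.4% were lower, beside 3.36% of all genes. The highest were Chil3 (0.33; readings of 3715 and 7589) and Gfi1 (0.24), and the lowest Hp (-0.95), which hepatocytes also express, and Cyba (-0.87). On the E14 array these lists had medians of 0.01 and 0.00 in the main values. There 0 genes of either list reached 1.5-fold, and 0.238% of all genes were higher. In the authors' deposited table the further granulocyte genes had a median of 0.007, with 8 of 16 above 0. Of these, 4 were at least 1.5-fold higher and 0 lower, against 5.38% and 1.22% of all genes. The further macrophage and monocyte genes had a deposited median of 0.06, with 2 of 21 higher. The neutrophil members stood at 0.70 there, with 6 of 9 higher, and the difference was not tested.

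Genes of other cell types also had ratios away from 0 on the P1 array, and their part in the myeloid ratios was not tested. Of 12 lung epithelial genes, 12 were detectable for wild type and 8 for knockout, with sums above the blank mean of 43518 and 356 and a median ratio of -4.48. Lung holds macrophages and neutrophils of its own. Genes of alveolar macrophages went in both directions, with Chil3 and Marco above 0, Car4 at -1.01 and Plet1 at -0.77, and 7 of 8 were detectable for wild type and 8 of 8 for knockout. The 11 erythroid genes had a median of -0.59 and the 14 genes shared by leukocytes one of -0.16, with Ptprc at -0.04. Under median centring these medians were -0.37 and 0.06, so the leukocyte list turned sign, with 8 of 14 above 0. The class II genes Cd74 and H2-Aa stood at -0.29 and -0.97. In the same channels the macrophage members summed to 15863 and 21407 above the blank mean, a factor of 1.35, and the neutrophil members to 50282 and 54359, a factor of 1.08, against 1.45 for all named genes.

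**Figure D4:**
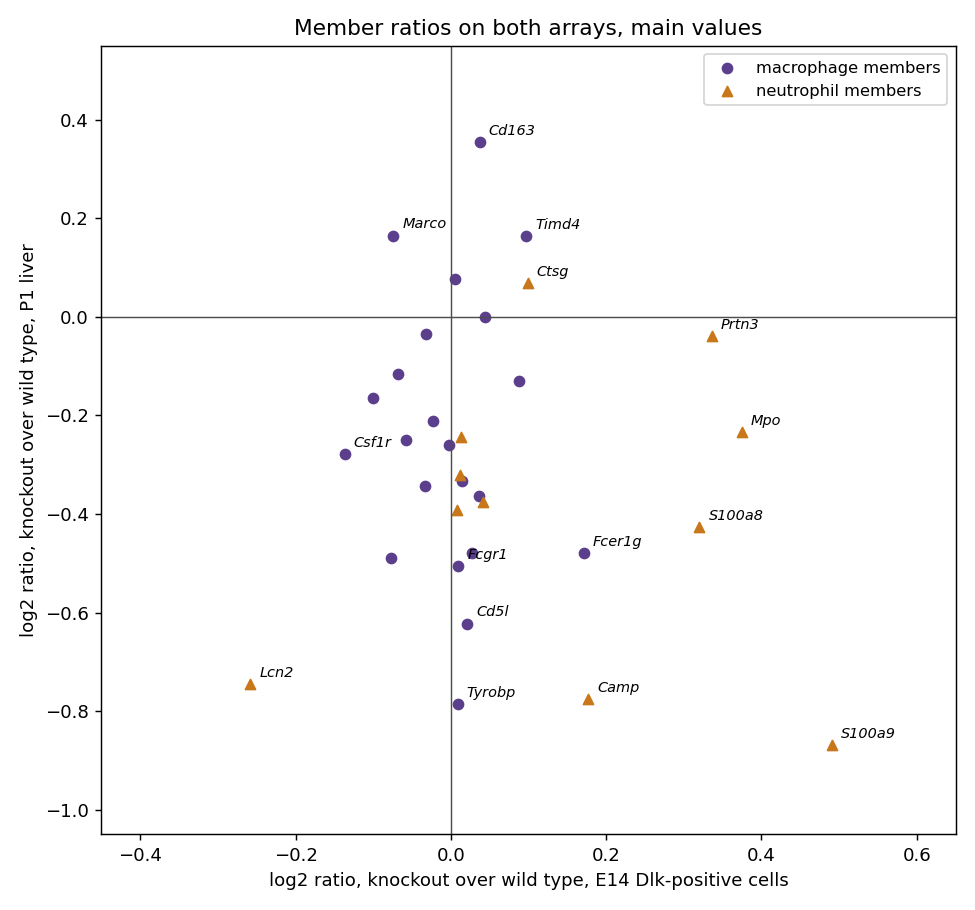
Log2 ratio of knockout over wild type on the P1 liver array (vertical) against the E14 Dlk-positive array (horizontal) for the 22 macrophage (circles) and 11 neutrophil members (triangles), main values with 1 array per axis. S100a9 lies furthest to the lower right, at 0.49 and -0.87, while most macrophage members lie near 0 on the horizontal axis and below 0 on the vertical axis; under median centring the P1 medians are 0.01 for the macrophage and 0.15 for the neutrophil members.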

How the data were processed

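Arrays of 2 colours were read for sorted E14 cells and P1 liver, 1 array each. The deposited scanner files hold median spot intensities and local background intensities at both wavelengths, combined from scans at 3 gains, per the file headers. The authors' deposited table holds log2 ratios, positive where the knockout was higher. These equalled the blank-subtracted, median-centred ratio of the channels (Pearson correlation 0.999995 and 0.9999998, medians 7.21e-07 and -2.74e-05), which settles scale, centring and direction.

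The main values used limma 3.58.1 in R 4.3.3: normexp with offset 50 on spot signals, without the local background, which followed the spots (Spearman 0.900 to 0.967), then loess within each array with control spots at weight 0. The steps were tested on simulated data, in which known ratios were set on bright probes only. Recovery of ratios at signals as low as those of the members on the E14 array was not checked. The platform annotation gives 1 symbol for 16631 of 23473 probes, several for 0 and none for 6842. RefSeq (GRCm38.p6) updated 3947 symbols; the files name no build. In all, 4 quality-flagged probes of the E14 array were left out. Precision is limited by the number of arrays.

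Members, gene lists and their roles were chosen with earlier results of these data known. All members are described; of each other list at most the 2 highest and 2 lowest P1 ratios among genes detectable in both channels, and the genes of the sort and Mmp14, unless stated. Counts use a fixed 1.5-fold size. Alternatives changed the background correction, offset, normalisation, detection filter and probe choice.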

Additional observations from a re-analysis of the deposited data

Results flagged for a closer look

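Ratios of single members with opposite signs on the arrays were looked at again where they differed by at least 1.5-fold, and list medians where their signs were opposite. With 1 array each, none of these differences was tested, and sorted cells and whole liver differ in stage and makeup. The median of the neutrophil members was lower on the P1 than on the E14 array by a log2 difference of -0.47 (0.10 and -0.38), and that of the macrophage members by -0.26 (0.01 and -0.25). Single genes gave differences of -1.36 for S100a9, -0.95 for Camp, -0.75 for S100a8 and -0.61 for Mpo among the neutrophil members, and of -0.79 for Tyrobp, -0.65 for Fcer1g and -0.64 for Cd5l among the macrophage members. The wild-type E14 readings of all 7 genes were under 1.5 times the threshold.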

How the results depend on the processing

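No paired analysis was possible because each comparison has 1 array and its result comes from no test. The medians and counts of the lists moved by less than the SD between probes of 1 gene (0.12 on the E14 and 0.22 on the P1 array), or not at all, with the detection filter, the probe choice or the genes read as whole numbers left out. Each member has 1 probe and none was read as a whole number, so the probe choice and the whole-number filter could not change these values. On the P1 array all members were detectable in both channels, so the detection filter removed none there. Only the detection filter on the E14 array could move a list. The macrophage median on the E14 array (0.01) was -0.20 under median centring, 0.33 with no centring or loess and -0.39 with local background subtracted; the neutrophil median there (0.10) was 0.70 in the authors' deposited table, 0.55 with no centring, 0.46 with local background subtracted and 0.66 with the blank mean subtracted. On the P1 array the macrophage median (-0.25) was 0.0097 under median centring and 0.16 with no centring, and the neutrophil median (-0.38) was -0.13 in the deposited table, 0.15 under median centring and 0.30 with no centring. Without centring, the median of all genes was 0.61 and 0.16 on the arrays.

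Counts at 1.5-fold followed. Of the E14 macrophage members, 0 were higher in the main values, 1 in the deposited table, 5 with no centring, 1 with normexp on local background, and 4 each with local background or the blank mean subtracted, where 5.38%, 51.5%, 2.97%, 16.1% and 6.46% of all genes were; 0 were lower, but 7 and 2 with those subtractions (12% and 5.77% of all genes). For the E14 neutrophil members the count higher (0) was 6 in the deposited table, 5 with no centring, 4 with local background subtracted, 6 with the blank mean subtracted and 3 at offset 16 (0.5% of all genes), and the count lower (0) was 1 with local background subtracted. Of the P1 macrophage members the count lower (2) was 0 under median centring and 0 with no centring, 4 with normexp on local background, 8 with it subtracted, 5 with the blank mean subtracted and 1 at offset 100, where 2.12%, 1.38%, 2.88%, 17.5%, 16.1% and 2.36% of all genes were; the count higher (0) was 1 in the deposited table, 1 under median centring, 3 with no centring, 2 with normexp on local background, 3 with it subtracted and 1 with the blank mean subtracted (11.9%, 7.9%, 13.1%, 5.37%, 19.7% and 12.9% of all genes). The P1 neutrophil count lower (3) was 0 in the deposited table, under median centring and with no centring, each 0; the count higher (0) was 1 with no centring, 1 with normexp on local background and 1 with it subtracted. At offset 16 the level medians between arrays were 4.04 (macrophage) and 5.43 (neutrophil) for wild type and 4.07 and 4.96 for knockout. The causes were not tested. Of all calls on the P1 array, 39.6% were higher in the main values, 49.2% in the deposited table and 78.8% under median centring; on the E14 array 58.2%, 81.5% and 99.8%. Dim wild-type readings limit the E14 ratios of 17 of 22 macrophage and 10 of 11 neutrophil members. The same range held 8319 of the 16387 named genes with a ratio on that array.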
